A study of Mus musculus with 7 samples.

Results

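Transcripts of 9 cytosolic and endosomal nucleic acid sensors and their direct partners were examined in mouse atypical teratoid rhabdoid tumours (ATRT): Mb21d1 (cGAS), Tmem173 (STING), Ddx58 (RIG-I), Ifih1 (MDA5), Mavs, Tlr3, Zbp1, Eif2ak2 (PKR) and Adar. They were taken by symbol, and all 9 were listed in each of the 7 libraries, among 19415 genes listed in any of them. The series is single-cell RNA sequencing of tumours that arose in Rosa26-creERT2::Smarcb1 fl/fl mice after a single intraperitoneal dose of tamoxifen (50 mg/kg) to the mother at day 6.5 post coitum, which lets a ubiquitously expressed Cre recombinase delete Smarcb1, whose protein belongs to the SWI/SNF chromatin remodellers. All groups carry this genotype and treatment, so there is no tumour-free or untreated control. The MYC subgroup held 5 libraries, from mice of 12, 19, 19, 21 and 27 weeks, and the SHH subgroup held 2 libraries, from mice of 14 and 16 weeks. MYC replicates 2 and 3 carry the same number in their titles and were summed as 1 animal, which gives MYC animals 1 (replicate 1), 2 (replicates 2 and 3), 3 (replicate 4) and 4 (replicate 5) against SHH animals 1 and 2. The MYC tumours lay in the basal cerebrum (replicates 1 and 5), the trigeminal nerve (replicates 2 and 4) and the lateral cerebellum (replicate 3), and both SHH tumours in the striatum and subventricular zone, so subgroup and site cannot be told apart.

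Cells read foreign or misplaced nucleic acids through a small set of receptors. cGAS binds double-stranded DNA in the cytosol and makes the cyclic dinucleotide cGAMP, which activates STING on the endoplasmic reticulum, whereas RIG-I and MDA5 are helicases that bind double-stranded RNA and signal through MAVS on the mitochondrial surface. TLR3 reads double-stranded RNA in endosomes, ZBP1 binds nucleic acids in the Z conformation and can start RIPK3- and MLKL-dependent cell death, PKR binds double-stranded RNA and phosphorylates the translation factor eIF2alpha, and ADAR1 edits double-stranded RNA and so keeps endogenous RNA from being sensed. These routes lead to type I interferon, and the genes of several of the sensors are themselves interferon-stimulated, which is why promoter sequence is shown first.

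Ddx58, Ifih1, Eif2ak2 and Adar each had a RefSeq promoter window (GRCm38.p6; 250 bases before to 50 after a start) with a match to GAAANNGAAA or GAAANGAAA, letters resembling the interferon-stimulated response element, on either strand. The windows below run 5′ to 3′ on the gene's strand, and capitals mark the match. They are shown because they are the windows among the sensors' entries that hold a match. They lie at chr4:40239776-40240075 (minus strand) for Ddx58, chr2:62646206-62646505 (minus) for Ifih1, chr17:78882523-78882822 (minus) for Eif2ak2 and chr3:89730468-89730767 (plus) for Adar, whose entry is the third of 3 listed starts.
Ddx58: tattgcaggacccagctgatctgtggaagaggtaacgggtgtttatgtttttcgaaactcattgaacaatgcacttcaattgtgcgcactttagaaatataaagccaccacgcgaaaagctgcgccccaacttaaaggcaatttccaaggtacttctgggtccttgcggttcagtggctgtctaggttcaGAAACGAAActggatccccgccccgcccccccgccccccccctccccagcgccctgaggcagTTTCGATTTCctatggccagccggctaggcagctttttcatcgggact
Ifih1: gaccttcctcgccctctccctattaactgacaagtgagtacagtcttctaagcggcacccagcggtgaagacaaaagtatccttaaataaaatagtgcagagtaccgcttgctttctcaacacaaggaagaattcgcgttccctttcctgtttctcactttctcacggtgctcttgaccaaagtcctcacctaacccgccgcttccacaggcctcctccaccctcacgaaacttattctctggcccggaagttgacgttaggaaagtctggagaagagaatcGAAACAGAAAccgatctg
Eif2ak2: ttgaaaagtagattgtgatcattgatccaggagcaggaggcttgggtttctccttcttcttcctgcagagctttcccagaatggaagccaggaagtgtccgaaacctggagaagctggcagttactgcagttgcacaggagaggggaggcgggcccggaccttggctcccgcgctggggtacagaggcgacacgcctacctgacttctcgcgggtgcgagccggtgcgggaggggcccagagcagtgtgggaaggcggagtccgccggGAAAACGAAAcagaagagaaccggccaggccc
Adar: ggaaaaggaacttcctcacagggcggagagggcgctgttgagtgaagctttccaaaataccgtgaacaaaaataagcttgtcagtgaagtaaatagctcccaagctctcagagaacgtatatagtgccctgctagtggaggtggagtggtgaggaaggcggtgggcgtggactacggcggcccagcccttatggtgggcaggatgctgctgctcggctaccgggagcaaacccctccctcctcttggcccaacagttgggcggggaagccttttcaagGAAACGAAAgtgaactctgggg
In Ddx58 one match reads GAAACGAAA and the other lies on the opposite strand, Ifih1 holds GAAACAGAAA, Eif2ak2 holds GAAAACGAAA and Adar holds GAAACGAAA. The windows of Mb21d1, Mavs and Tlr3 and the other 2 starts of Adar held neither motif, and Tmem173 and Zbp1 had no entry. Of all 32851 promoter windows, 6.27% held either motif (3.44% GAAANNGAAA and 3.17% GAAANGAAA). Counted by gene, 1964 of 27025 genes had a window with either motif. The palindromic TTCNNNGAA, letters of a STAT site, was in 8.3% of all windows and matched TTCCCAGAA in Eif2ak2 and TTCAAGGAA in the same Adar window, where it overlaps the capitals. A match describes these letters only.

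In the GENCODE annotation of GRCm38 (mm10), the genes lie at chr9:78430526-78443237 (Mb21d1), chr4:40203773-40239828 (Ddx58), chr2:62595798-62646255 (Ifih1), chr2:131234063-131248025 (Mavs), chr8:45395665-45411080 (Tlr3), chr2:173206612-173218923 (Zbp1), chr17:78852564-78882573 (Eif2ak2) and chr3:89715022-89753446 (Adar). Tmem173 is on chromosome 18. Annotated genes on the opposite strand overlap Mb21d1 (the pseudogene Gm8093), Tlr3 (the antisense RNA Gm45542), Eif2ak2 (the lincRNA Gm26637 and an rRNA gene) and Adar (Chrnb2), and whether the counting used strand is not given in the sources used here. Whether reads of such overlapping genes were shared was not tested.

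Viable cells, negative for the dye 7-AAD, were captured in 10x Chromium droplets, and unique molecular identifiers (UMIs) were counted per gene and barcode. Of 24433 barcodes, 23247 were kept, with at least 1000 UMIs, at least 200 genes and no more than 20% of UMIs from mitochondrial genes. The libraries held between 2150925 and 9771059 UMIs, except MYC replicate 5 with 111985990, and 230 barcode sequences occurred in more than 1 library. Cells were gated on raw marker UMIs into macrophages (C1qa, C1qb, Csf1r and 6 more genes), T cells (Cd3d, Cd3e, Cd3g and others), smaller immune and stromal classes, and tumour-candidate cells, which carry no Ptprc UMI and almost no marker UMI of any other class. Between 9.4% and 39.31% of barcodes per library stayed unassigned. Smarcb1, the deleted gene, was at 0 to 9.24 CPM (UMIs of the gene per 1000000 UMIs of the class) in the tumour-candidate cells of the 6 animals, against 21.9 to 43.9 CPM in macrophages. Summed over 8 macrophage genes kept out of the gates, tumour-candidate cells held 68.6 to 356 CPM in MYC animals and 116 to 285 CPM in SHH animals, which is 0.325% to 4.11% of the level in macrophages. The matching T cell list of 8 genes stood at 3.99 to 184 CPM in MYC animals and 2.91 to 20.8 CPM in SHH animals. The highest of these values, 8.2% of the level in T cells, was that of MYC animal 3.

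RIG-I transcript was higher in MYC than in SHH tumour-candidate cells and was the 1 sensor of 7 tested that passed, while ZBP1, MDA5, cGAS, PKR and ADAR1 transcripts had every MYC animal above both SHH animals without passing across all genes. Of 9917 genes tested, 5.18% passed, 2.49% higher and 2.69% lower in MYC (247 and 267 genes, against 896 and 532 with DESeq2). The median log2 fold change was 2.64 over the 7 tested sensors and 0.05 over all genes tested. Tmem173 and Tlr3 fell below the low-count filter. That every MYC animal lies above every SHH animal held for 6 of the sensors and for 11.4% of all genes tested.

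**Figure D1:**
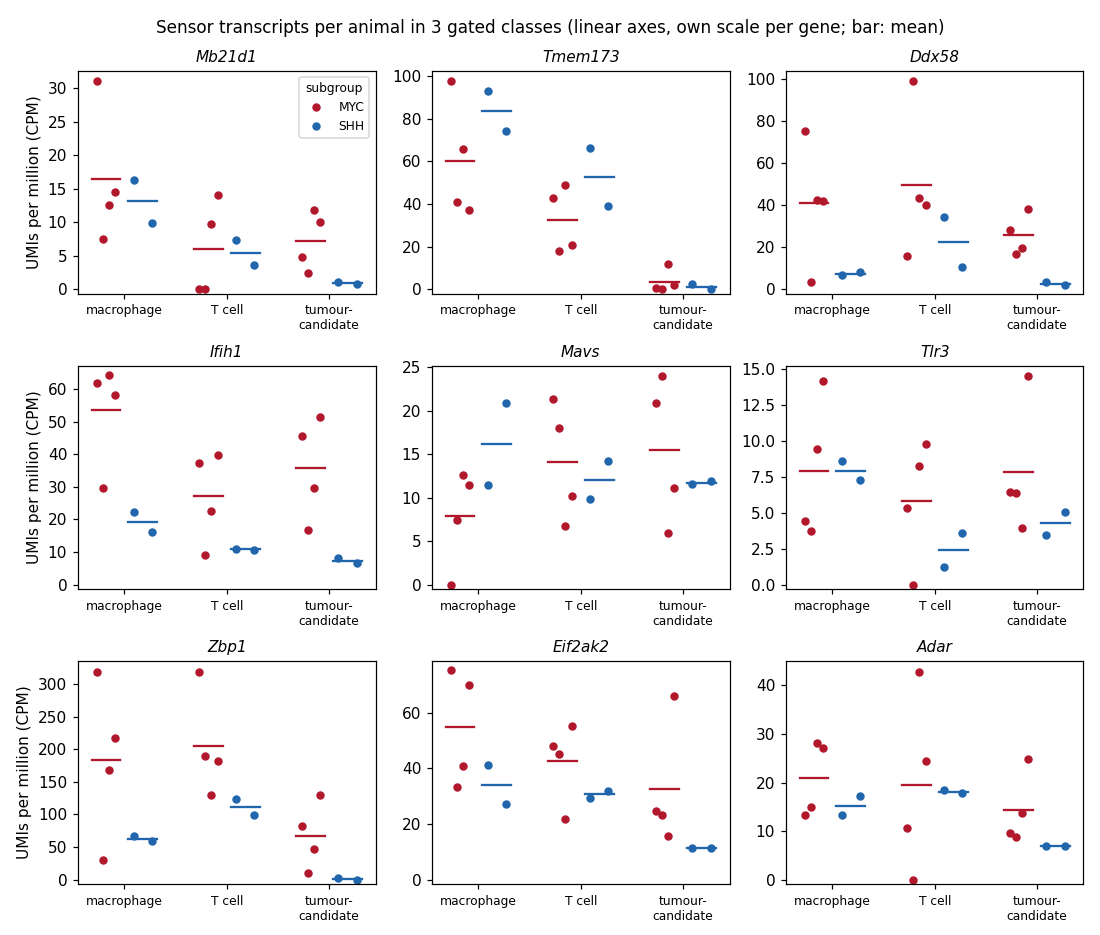
Each panel shows 1 gene in CPM (linear axis, own scale) in macrophages, T cells and tumour-candidate cells, with 1 point per animal, red for MYC (4 animals) and blue for SHH (2 animals), and a bar at the group mean. In tumour-candidate cells Ddx58 lies between 16.8 and 38.3 CPM in MYC animals and at 3.47 and 1.85 CPM in SHH animals.

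Among the RNA helicases, Ddx58 had 28.0, 16.8, 19.8 and 38.3 CPM in the tumour-candidate cells of MYC animals 1 to 4, against 3.47 and 1.85 CPM in those of SHH animals 1 and 2. The lowest MYC animal was above the highest SHH animal. The means were 25.7 ± 9.68 CPM in MYC (SD, n = 4) and 2.66 ± 1.14 CPM in SHH (SD, n = 2), a log2 fold change of 3.75 ± 0.65 (SE) with an edgeR quasi-likelihood adjusted p of 0.0268 after Benjamini-Hochberg correction. The call depends on having both SHH animals: without SHH replicate 1 the log2 fold change was 4.04 (edgeR adjusted p = 0.189), and without SHH replicate 2 it was 3.21 (edgeR adjusted p = 0.302). MYC replicate 5 and SHH replicate 1 were sequenced in 2 runs and the other libraries in 1. Within the 2-run libraries MYC animal 4 had 38.3 CPM of Ddx58 and SHH animal 1 had 3.47 CPM, and within the 1-run libraries the MYC animals had 16.8 to 28.0 CPM and SHH animal 2 had 1.85 CPM. With the number of runs as a covariate the log2 fold change was 3.82 (edgeR adjusted p = 0.0316). Leaving out tumour-candidate barcodes with a UMI of the 8 T cell genes gave 4.04 (edgeR adjusted p = 0.0219).

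Ifih1, the helicase that reads long double-stranded RNA, had 45.7, 16.8, 29.6 and 51.5 CPM in MYC animals 1 to 4, against 8.09 and 6.61 CPM in SHH animals. The groups did not overlap, and its log2 fold change of 2.64 ± 0.61 (SE) had an edgeR adjusted p of 0.0584. Without MYC replicate 3, which leaves MYC animal 2 with too few cells and so drops it, the log2 fold change was 2.87 and passed (edgeR adjusted p = 0.0191). It did not pass without MYC replicate 1, 4 or 5 (edgeR adjusted p = 0.0894, 0.0796 and 0.0877). Without SHH replicate 1 or 2, which leaves a single SHH animal, the Ifih1 log2 fold change was 2.69 and 2.47. Mavs, the adaptor of both helicases, had 20.8, 23.9, 5.93 and 11.1 CPM in MYC animals and 11.6 and 11.9 CPM in SHH animals. These ranges overlap, with the SHH values inside the MYC range, and the log2 fold change was 0.71 ± 0.59 (SE; edgeR adjusted p = 0.527).

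On the DNA side, Mb21d1 had 4.81, 2.39, 11.9 and 9.99 CPM in MYC animals and 1.16 and 0.793 CPM in SHH animals. All MYC animals were above the SHH animals, whose values rest on 4 UMIs in all, and the log2 fold change was 3.28 ± 0.99 (SE; edgeR adjusted p = 0.111). It passed without MYC replicate 3, with a log2 fold change of 3.56 (edgeR adjusted p = 0.0424), but not without MYC replicate 1 (3.45, edgeR adjusted p = 0.117). Without SHH replicate 1 or 2, which leaves a single SHH animal, the Mb21d1 log2 fold change was 3.38 and 2.91. Tmem173, which encodes the receptor of the cGAS product, was low in tumour-candidate cells, with few UMIs outside MYC animal 4. MYC animals 1 to 4 had 1, 0, 6 and 85 Tmem173 UMIs, or 0.801, 0, 11.9 and 2.03 CPM. For Tmem173 SHH animals had 2 and 0 UMIs, or 2.31 and 0 CPM. Its ranges overlap, and it was not tested.

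Zbp1 had the widest gap between the groups among the sensors, with 81.7, 9.57, 47.4 and 129 CPM in MYC animals against 2.31 and 0.264 CPM in SHH animals. The MYC animals themselves spread over more than an order of magnitude, and the SHH level rests on 3 UMIs in 4647197. The mean of the MYC animals was 104 times the level pooled over SHH, with an exact Poisson 95% range of 35.5 to 504 that covers the counting error of those 3 UMIs only. The log2 fold change was 6.70 ± 1.54 (SE) with an edgeR adjusted p of 0.0569, so it did not pass. Without MYC replicate 3, which drops MYC animal 2, it was 7.10 and passed (edgeR adjusted p = 0.0149), and with a stricter tumour gate of no marker UMI at all it was 7.45 (edgeR adjusted p = 0.0207), a setting that also leaves out MYC animal 1, with 11 such cells. It was 5.09 with a looser gate (edgeR adjusted p = 0.0815), 8.17 without SHH replicate 1 (edgeR adjusted p = 0.267) and 5.18 without SHH replicate 2 (edgeR adjusted p = 0.405). In MYC animal 2 the level came from 4 Zbp1 UMIs in 8 cells of the trigeminal nerve tumour (138 CPM) and 8 UMIs in the cerebellar tumour (6.53 CPM).

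Eif2ak2, the kinase that shuts translation down on double-stranded RNA, had 24.8, 23.1, 15.8 and 65.9 CPM in MYC animals and 11.6 and 11.4 CPM in SHH animals. MYC animal 4 was far above the other MYC animals, all of which were still above SHH, and the log2 fold change was 1.88 ± 0.70 (SE; edgeR adjusted p = 0.177), or 1.19 without MYC replicate 5, the library of that animal (edgeR adjusted p = 0.193). Adar had 9.62, 8.78, 13.8 and 24.9 CPM in MYC animals and 6.93 and 6.88 CPM in SHH animals. Here too the groups did not overlap, but MYC animal 2 lay close to SHH, and the log2 fold change was 1.41 ± 0.62 (SE; edgeR adjusted p = 0.235). Tlr3 had 6.41, 6.38, 3.95 and 14.5 CPM in MYC animals and 3.47 and 5.02 CPM in SHH animals, with overlapping ranges and no test because of its low counts. These fits set 4 animals against 2, and a p above the threshold does not show equal levels.

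**Figure D2:**
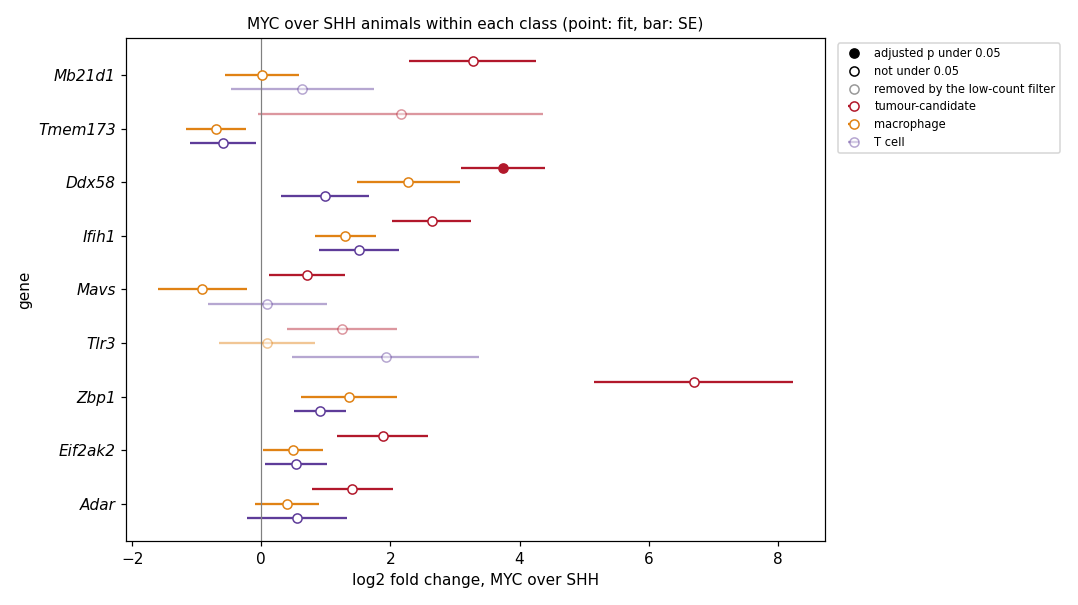
Points show the edgeR log2 fold change of MYC over SHH (x axis) for each sensor in tumour-candidate cells (red), macrophages (orange) and T cells (purple), bars show the SE, filled points have an adjusted p under 0.05 and pale points were removed by the low-count filter and are drawn from the fit without it. Ddx58 in tumour-candidate cells, at 3.75, is the 1 filled point.

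The genes around the sensors were taken from 7 lists with 118 members, of which 83 could be tested in tumour-candidate cells. Of these, 23 rose in MYC and 0 fell (5.18% of all genes passed in either direction), and the interferon-stimulated genes gave 12 of the 23. These calls rest on both SHH animals: of all genes 514 passed, against 13 without SHH replicate 1 and 2 without SHH replicate 2. Among 17 tested interferon-stimulated genes the median log2 fold change was 4.42, against 0.05 over all genes. Ifit1, which blocks foreign RNA from being translated, had 268, 311, 367 and 519 CPM in MYC animals and 10.4 and 5.55 CPM in SHH animals, and its log2 fold change was 5.90 ± 0.59 (SE; edgeR adjusted p = 0.00696). Bst2 (tetherin), Xaf1 and Parp14 passed with log2 fold changes of 5.90, 5.87 and 5.93.

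Among the other RNA sensors and cofactors 4 of 11 rose in MYC, and each codes for a double-stranded RNA binding or helicase protein. Dhx58 (LGP2), the third RIG-I-like receptor, had 32.1, 48.7, 23.7 and 49.2 CPM in MYC animals and 2.31 and 2.91 CPM in SHH animals, with a log2 fold change of 4.14 ± 0.56 (SE; edgeR adjusted p = 0.0155). Oasl2, Ddx60 and Oas1a passed with log2 fold changes of 6.56, 5.71 and 4.38. Oas1a belongs to a family of near-identical copies, so its reads could be split among them. Of 9 other DNA sensors and endosomal receptors only Ifi203 passed, at 229 ± 195 CPM in MYC (SD, n = 4) and 2.87 ± 0.797 CPM in SHH (SD, n = 2). Its log2 fold change was 6.53 ± 1.13 (SE; edgeR adjusted p = 0.0268), and it too lies in a cluster of similar genes, with Ifi204 and Mnda at adjusted p = 0.0648 and 0.114 in the same edgeR fit. Dhx9, an RNA helicase, had a log2 fold change of -0.55 (edgeR adjusted p = 0.442).

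Of 10 adaptors, kinases and interferon regulatory factors 1 rose, Irf7, the factor that amplifies interferon transcription. It had 222, 71.0, 65.2 and 407 CPM in MYC animals and 3.47 and 1.85 CPM in SHH animals, a log2 fold change of 6.65 ± 1.23 (SE; edgeR adjusted p = 0.0321). Irf3, the factor that TBK1 activates, had 35.4 ± 11.2 CPM in MYC and 35.5 ± 0.451 CPM in SHH (SD, n = 4 and 2), and Tbk1, the kinase downstream of STING and MAVS, had 14.0 ± 2.84 CPM in MYC and 9.48 ± 2.93 CPM in SHH (SD, n = 4 and 2). Their log2 fold changes were 0.30 ± 0.41 and 0.87 ± 0.44 (SE; edgeR adjusted p = 0.732 and 0.286), and both genes were picked after their values were seen. Irf1, Myd88 and Tank had log2 fold changes of 2.91, 1.89 and 1.86 with edgeR adjusted p of 0.059, 0.0946 and 0.166.

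Among 12 nucleases and brakes on sensing Samhd1 rose, a phosphohydrolase that limits DNA precursors. It had 74.5, 72.6, 81.0 and 66.0 CPM in MYC animals and 23.1 and 21.4 CPM in SHH animals, and its log2 fold change was 2.02 ± 0.31 (SE; edgeR adjusted p = 0.0205). The values lay close together within each group. Usp18, which dampens interferon receptor signalling, had a log2 fold change of 3.23 (edgeR adjusted p = 0.0703), and the nucleases Dnase1l1 and Dnase2a had 1.57 and 2.22 (edgeR adjusted p = 0.144 and 0.176). Of 9 tested interferon receptor and signalling genes Stat2 rose, with 30.9 ± 9.49 CPM in MYC (SD, n = 4) and 5.63 ± 3.47 CPM in SHH (SD, n = 2), a log2 fold change of 2.89 ± 0.61 (SE; edgeR adjusted p = 0.0438). Irf9 and Ifnar2 had log2 fold changes of 2.11 and 1.29 without passing. Ifnb1, the interferon itself, had 5 UMIs in all MYC tumour-candidate cells, all in MYC animal 4, and 0 UMIs in those of SHH, too few to compare.

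Of 15 effectors of ZBP1 and PKR 3 rose in MYC. Mlkl, the membrane-breaking protein of necroptosis, had 41.7, 35.1, 13.8 and 30.8 CPM in MYC animals and 0 UMIs in both SHH animals. Set against 3 UMIs over the SHH group, the mean of the MYC animals was at least 47.0-fold higher (edgeR adjusted p = 0.015). Gsdmd, the pore-forming protein of pyroptosis, had 20.8, 55.8, 13.8 and 23.1 CPM in MYC animals and 0 and 1.06 CPM in SHH animals, and Casp8, the protease that restrains necroptosis, had 32.1, 80.6, 45.4 and 44.3 CPM in MYC animals and 2.31 and 8.20 CPM in SHH animals. Both sets of values were without overlap, with log2 fold changes of 5.46 ± 0.99 for Gsdmd and 3.40 ± 0.66 for Casp8 (SE; edgeR adjusted p = 0.0305 and 0.0349). Ripk3, the kinase between ZBP1 and MLKL, chosen after its values were seen, had 36.9, 0, 9.88 and 5.46 CPM in MYC animals and 0 and 0.264 CPM in SHH animals. MYC animal 2 had none of it, and it did not pass (edgeR adjusted p = 0.166). Atf4, the translation-controlled factor downstream of PKR, had a log2 fold change of 1.25 (edgeR adjusted p = 0.066).

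**Figure D3:**
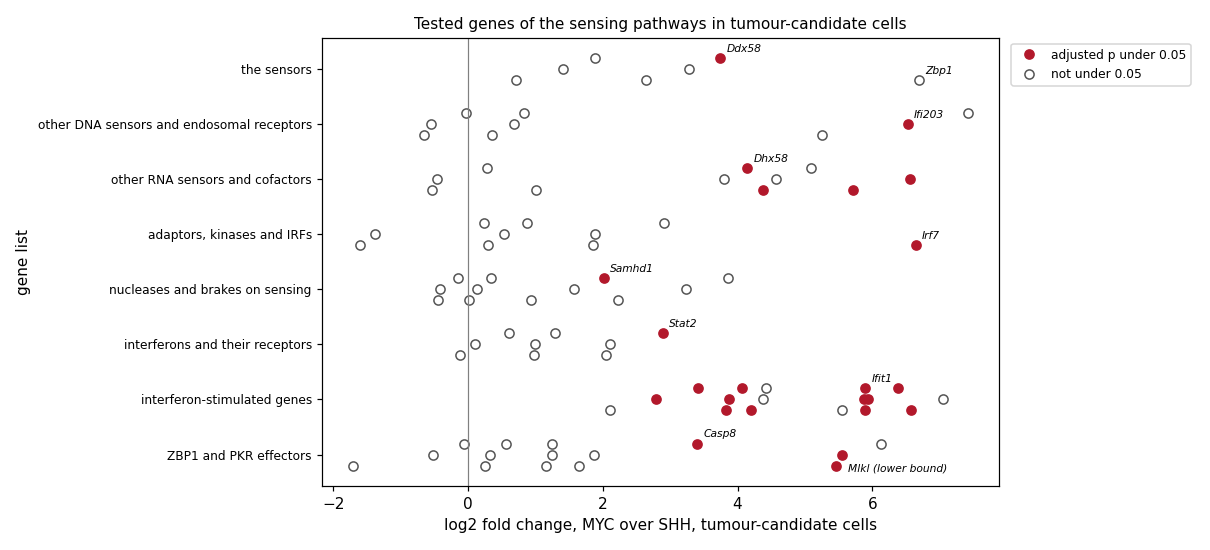
Each point is a tested gene in tumour-candidate cells, placed by its log2 fold change of MYC over SHH (x axis) in the row of its list, with the 7 tested sensors on top, and filled red where the edgeR adjusted p is under 0.05. All 23 filled points outside the top row are to the right of 0, and Mlkl is drawn at its lower bound of 5.55 (log2) against 3 UMIs.

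In macrophages and T cells of the same tumours 0 of 8 and 0 of 6 tested sensors passed between MYC and SHH, where 0.212% and 0.0482% of all genes passed (16 of 7535 and 3 of 6229), with edgeR. In macrophages 0.0664% of genes were higher and 0.146% lower. At an unadjusted p under 0.05 edgeR had 828 genes in macrophages and 256 in T cells, and DESeq2 called 296 genes in macrophages (201 higher and 95 lower) and 28 in T cells (25 higher and 3 lower), where edgeR had 5 higher and 11 lower in macrophages and 3 lower in T cells. Ifih1 in macrophages had 62.0, 29.7, 64.3 and 58.3 CPM in MYC animals and 22.1 and 16.3 CPM in SHH animals. It was the 1 sensor without overlap there, against 11.3% of all genes with every MYC animal above SHH, and its log2 fold change was 1.30 ± 0.47 (SE; edgeR adjusted p = 0.321). Ddx58 in macrophages had 75.3, 3.72, 42.3 and 42.1 CPM in MYC animals and 6.85 and 8.14 CPM in SHH animals. MYC animal 2 was below both SHH animals, on 1 UMI, and the log2 fold change was 2.28 ± 0.80 (SE; edgeR adjusted p = 0.304).

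Zbp1 in macrophages had 319, 29.7, 168 and 218 CPM in MYC animals and 67.3 and 58.8 CPM in SHH animals, and in T cells 319, 189, 130 and 183 CPM in MYC animals and 124 and 99.5 CPM in SHH animals. Its groups overlapped in macrophages through MYC animal 2 and did not in T cells, where 4.29% of all genes have every MYC animal above SHH. The log2 fold changes were 1.35 ± 0.74 and 0.91 ± 0.41 (SE; edgeR adjusted p = 0.593 and 0.999). Tmem173 and Mavs had lower means in MYC macrophages: 60.3 ± 27.9 CPM in MYC and 83.6 ± 13.2 CPM in SHH for Tmem173, and 7.85 ± 5.68 CPM in MYC and 16.1 ± 6.64 CPM in SHH for Mavs (SD, n = 4 and 2). Their log2 fold changes of -0.70 ± 0.46 and -0.91 ± 0.69 (SE) did not pass (edgeR adjusted p = 0.693 and 0.75). The macrophage gate did not hold the same mix in both groups. The microglial genes Siglech, P2ry12 and Tmem119 stood at 0 to 65.3, 8.97 to 181 and 69.0 to 350.04 CPM in the MYC libraries, and at 159 to 321, 249 to 249.7 and 522 to 541 CPM in the SHH libraries, and their part in these values was not tested.

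The difference between the tumour-candidate and the macrophage fold of MYC over SHH was tested directly. Zbp1 passed, with 5.28 ± 0.79 (SE) on the log2 scale more in tumour-candidate cells than in macrophages (edgeR adjusted p = 0.0216), and was the 1 of 9 sensors to do so, against 1.55% of 10972 genes (1.4% with a larger fold in tumour-candidate cells and 0.146% with a smaller one). Its level in SHH tumour-candidate cells was 2.31 and 0.264 CPM beside 67.3 and 58.8 CPM in SHH macrophages, whereas in MYC animals tumour-candidate cells had 9.57 to 129 CPM beside 29.7 to 319 CPM in macrophages. This call was lost without MYC replicate 1 (5.37, edgeR adjusted p = 0.0541), without SHH replicate 1 (6.71, edgeR adjusted p = 0.0723) and without SHH replicate 2 (3.89, edgeR adjusted p = 0.326). Mb21d1 and Ddx58 had differences of 3.14 ± 0.95 and 1.64 ± 0.91 (SE) that did not pass (edgeR adjusted p = 0.188 and 0.499). Of the 99 tested genes around the sensors 12 had a larger fold in tumour-candidate cells and 0 a smaller one, with Oas1a at 4.02, Irf7 at 4.85 and Casp8 at 3.46 on the log2 scale (edgeR adjusted p = 0.019, 0.0297 and 0.0373).

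Across cell classes of the same animal, macrophages held more sensor transcript than tumour-candidate cells for 6 of 8 tested sensors, and the STING gene differed most. Of 8334 genes tested 31.0% passed, 16.4% higher and 14.6% lower in macrophages. The same 6 sensors were higher in macrophages in 6 of 6 animals, which held for 11.9% of all genes tested. The median log2 fold change was 1.21 over the sensors and -0.09 over all genes. These tests keep the animal as a block, and the comparisons of macrophages and of T cells share the same tumour-candidate sums.

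Tmem173 stood at 37.0 to 97.5 CPM in macrophages (median 70.03 over 6 animals), at 18 to 66.2 CPM in T cells (median 40.8) and at 0 to 11.9 CPM in tumour-candidate cells (median 1.41). No animal's macrophages or T cells were as low as any tumour-candidate sum. The lowest T cell value, in MYC animal 2, rests on 2 UMIs. The highest tumour-candidate value, in MYC animal 3, rests on 6 UMIs, so this gap is within reach of counting error. The log2 fold change was 5.27 ± 0.59 in macrophages over tumour-candidate cells and 4.14 ± 0.59 in T cells over tumour-candidate cells (SE; edgeR adjusted p = 1.05e-05 and 0.000166). In the SHH animal with 0 UMIs in tumour-candidate cells, macrophages were at least 93.5-fold and T cells at least 49.3-fold higher against 3 UMIs, and in MYC animal 2 macrophages were at least 17.1-fold higher. Macrophages over T cells gave 1.13 ± 0.49 (SE), which did not pass (edgeR adjusted p = 0.131), so the order of these neighbours was not resolved. The widest tumour-candidate value, 11.9 CPM in MYC animal 3, is that of the animal whose tumour-candidate cells also held the T cell list at 8.2% of its level in T cells. In MYC animal 4, with 2.03 CPM of Tmem173, they held the macrophage list at 4.11% of its level in macrophages. The part of either list's cells in these values was not tested.

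Zbp1 was highest in T cells, with a lowest, median and highest animal of 99.5, 156 and 319 CPM, next in macrophages (29.7, 118 and 319 CPM) and lowest in tumour-candidate cells (0.264, 28.5 and 129 CPM). T cells and macrophages were each above the tumour-candidate cells of their own animal in 6 of 6 animals. The size of this gap differed by subgroup. Macrophages were 1.68- to 3.90-fold higher in MYC animals, and 29.1- and 222-fold higher in SHH animals 1 and 2. T cells were 1.41- to 19.7-fold higher in MYC animals, and 53.6- and 376-fold higher in SHH animals. The SHH folds rest on 2 and 1 tumour-candidate UMIs. The log2 fold change was 2.80 ± 0.73 in T cells over tumour-candidate cells and 2.47 ± 0.70 in macrophages over tumour-candidate cells (SE; edgeR adjusted p = 0.0104 and 0.0156), and between macrophages and T cells it was -0.33 ± 0.66 (SE; edgeR adjusted p = 0.821). Without SHH replicate 1 the macrophage difference no longer passed (2.18, edgeR adjusted p = 0.0547). It and Tmem173 were the 2 of 8 tested sensors that rose in T cells, where 28.5% of genes passed, 14.3% higher and 14.2% lower, and 13.8% were higher in 6 of 6 animals.

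Mb21d1 had 7.43, 13.5 and 31.0 CPM as the lowest, median and highest animal in macrophages and 0, 5.45 and 14.0 CPM in T cells, against 0.793, 3.60 and 11.9 CPM in tumour-candidate cells. Macrophages were above tumour-candidate cells in each animal, by 2.00 ± 0.53 (log2, SE; edgeR adjusted p = 0.0104), a call lost without SHH replicate 1 or 2 (1.72 and 1.61, edgeR adjusted p = 0.0547 and 0.0519). Within animals the macrophage gap ran from 1.06-fold in MYC animal 3, on 8 UMIs against 6, to 14.1-fold in SHH animal 1, on 93 against 1. T cells over tumour-candidate cells gave 0.65 ± 0.56 (SE; edgeR adjusted p = 0.423). Ifih1 had 16.3, 44.0 and 64.3 CPM in macrophages and 9.0, 16.8 and 39.8 CPM in T cells, against 6.61, 23.2 and 51.5 CPM in tumour-candidate cells. It rose in macrophages over both others, with log2 fold changes of 1.11 ± 0.25 over tumour-candidate cells and 1.25 ± 0.28 over T cells (SE; edgeR adjusted p = 0.00439 and 0.00616), and was the 1 of 8 sensors that differed between macrophages and T cells, where 18.1% of genes did (10.5% higher and 7.61% lower in macrophages). The difference from T cells did not pass without MYC replicate 4 (1.13, edgeR adjusted p = 0.0504).

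Eif2ak2 had 27.1, 40.9 and 75.3 CPM in macrophages as the lowest, median and highest animal, against 11.4, 19.5 and 65.9 CPM in tumour-candidate cells, and Adar had 13.3, 16.0 and 28.2 CPM in macrophages, against 6.88, 9.20 and 24.9 CPM in tumour-candidate cells. Ranges over animals overlap for both genes, but within each animal macrophages were the higher class. The gap was small in MYC animal 4, at 1.06-fold for Eif2ak2 and 1.09-fold for Adar. It was largest at 3.56-fold for Eif2ak2 (SHH animal 1) and 2.50-fold for Adar (SHH animal 2). The log2 fold changes of macrophages over tumour-candidate cells were 1.32 ± 0.29 and 0.94 ± 0.34 (SE; edgeR adjusted p = 0.00356 and 0.0491). The call for Adar was at the threshold and was lost without MYC replicate 1, MYC replicate 4, SHH replicate 1 or SHH replicate 2 (0.93, 0.91, 0.85 and 0.72, edgeR adjusted p = 0.0869, 0.103, 0.153 and 0.204). T cells over tumour-candidate cells gave 0.69 ± 0.31 for Eif2ak2 (SE; edgeR adjusted p = 0.112).

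For Ddx58 and Mavs neither macrophages nor T cells passed over tumour-candidate cells. Ddx58 had 10.7, 37.3 and 99 CPM as the lowest, median and highest animal in T cells, 3.72, 25.1 and 75.3 CPM in macrophages and 1.85, 18.3 and 38.3 CPM in tumour-candidate cells. It was higher in macrophages and in T cells than in tumour-candidate cells in 5 of 6 animals each, with log2 fold changes of 0.96 ± 0.54 and 1.42 ± 0.57 (SE; edgeR adjusted p = 0.198 and 0.0768). Mavs was at like levels in the 3 classes, with 10.6 ± 6.81 CPM in macrophages, 13.4 ± 5.5 CPM in T cells and 14.2 ± 6.77 CPM in tumour-candidate cells (SD, n = 6). It was higher in macrophages than in tumour-candidate cells in 3 of 6 animals, with a log2 fold change of 0.20 ± 0.40 (SE; edgeR adjusted p = 0.753).

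**Figure D4:**
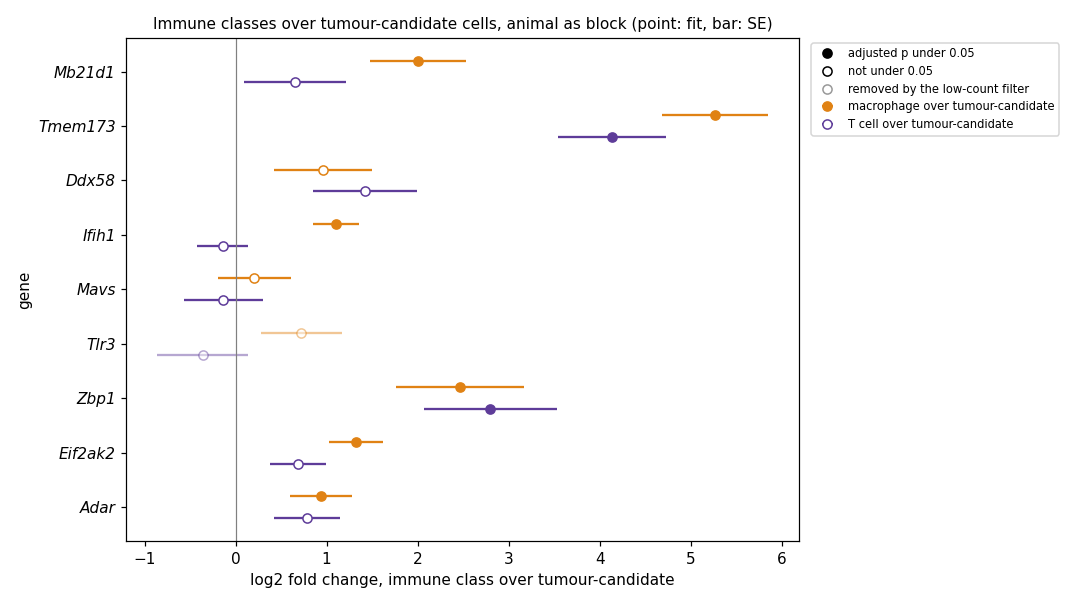
Points show the edgeR log2 fold change of macrophages (orange) and of T cells (purple) over tumour-candidate cells (x axis) with the animal as a block, bars show the SE, filled points have an adjusted p under 0.05 and pale points were removed by the low-count filter. Tmem173 lies farthest right at 5.27 and 4.14, and Mavs lies at 0.20 and -0.13.

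Around the sensors 42 of 90 tested genes rose in macrophages over tumour-candidate cells and 0 fell, against 16.4% higher over all genes. Irf5 and Irf8, regulatory factors of myeloid cells chosen after their values were seen, had log2 fold changes of 6.07 and 6.86 (edgeR adjusted p = 2.13e-07 and 2.9e-07), as had Unc93b1, the chaperone of endosomal Toll-like receptors, with 5.92 (edgeR adjusted p = 5.08e-07). Irf3 had 0.03 ± 0.24 (SE; edgeR adjusted p = 0.949). In T cells over tumour-candidate cells 25 of 90 rose and 1 fell, against 14.3% higher and 14.2% lower over all genes.

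Tlr3 had means of 7.92 ± 3.78 CPM in macrophages, 4.69 ± 3.85 CPM in T cells and 6.62 ± 4.04 CPM in tumour-candidate cells (SD, n = 6), and most of its UMIs came from MYC animal 4, which had 534 UMIs in macrophages and 607 in tumour-candidate cells. In classes with 20 or more cells per library it had 134 CPM in the dendritic cells of MYC replicate 4 (52 UMIs in 88 cells, exact Poisson 95% interval 99.9 to 175), 17.2 CPM in MYC replicate 5 (5 UMIs in 56 cells, 5.59 to 40.2) and 53.8 CPM in SHH replicate 1 (4 UMIs in 20 cells, 14.7 to 138). In MYC replicate 4 the macrophages had 9.41 CPM and the tumour-candidate cells 3.95 CPM, and in SHH replicate 1 they had 8.61 and 3.47 CPM. In MYC replicate 5 they had 14.1 and 14.5 CPM, inside the interval of its dendritic cells, so the higher dendritic level was not seen in that library. These intervals cover counting error only. Dendritic barcodes with a UMI of Xcr1 or Clec9a, genes of the cross-presenting type 1 subset in which TLR3 is known to be abundant, held all 68 Tlr3 UMIs in 116 cells, or 120 CPM (93.1 to 152). MYC replicate 4 gave 52 of these UMIs. By library such barcodes had 158 CPM in MYC replicate 4, 70.6 CPM in SHH replicate 1 and 216 CPM in SHH replicate 2. In MYC replicate 5 they had 33.5 CPM (10.9 to 78.1), an interval that holds its macrophage and tumour-candidate levels. The remaining 55 dendritic cells held 0 Tlr3 UMIs, with an upper 95% limit of 16.9 CPM. This split was chosen after the values were seen, and pools 4 libraries of cells, so it has no test. Plasmacytoid dendritic cells of MYC replicate 4 had 1 Tlr3 UMI in 117 cells (3.69 CPM) and B cells of 2 libraries had none in 33 and 48 cells.

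**Figure D5:**
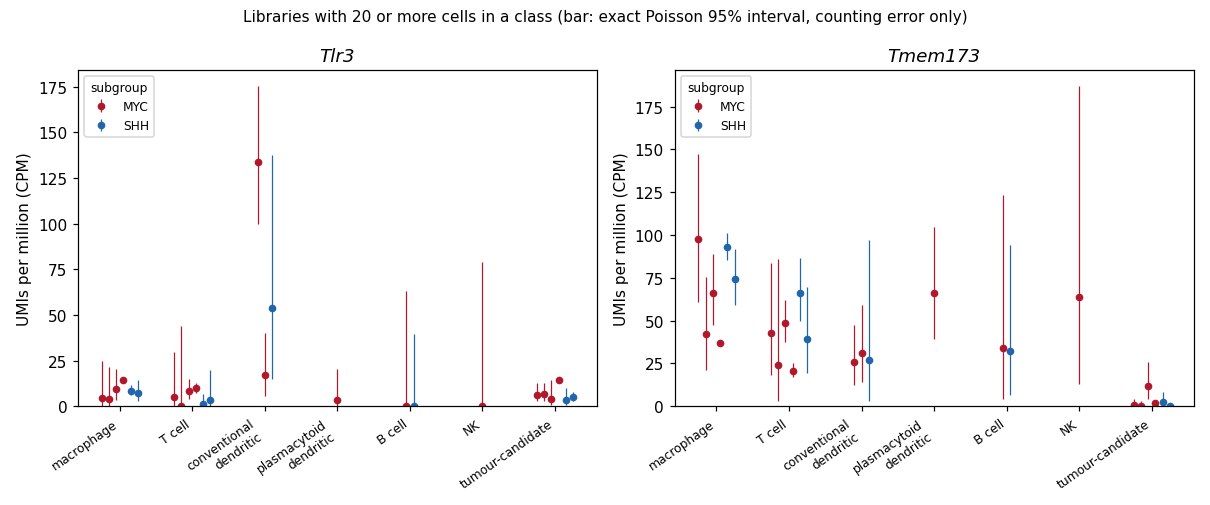
The left panel shows Tlr3 and the right panel Tmem173 in CPM (linear axis) for every library with 20 or more cells in a class (macrophages, T cells, 4 smaller immune classes and tumour-candidate cells), red for MYC and blue for SHH, with exact Poisson 95% intervals that cover counting error only. Among the classes shown, Tlr3 is highest in the conventional dendritic cells of MYC replicate 4 at 134 CPM. Tmem173 is lowest, among the same classes, in tumour-candidate cells, at no more than 11.9 CPM. Neutrophils, oligodendrocytes and endothelial cells are not drawn.

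In the smaller classes the other sensors were read at low depth. Tmem173 had 66.4 CPM in the plasmacytoid dendritic cells of MYC replicate 4 and 64.0 CPM in its natural killer cells (29 cells, 46842 UMIs of all genes). It had 34.1 and 32.2 CPM in B cells of MYC replicate 4 and SHH replicate 1 (58575 and 93102 UMIs of all genes). The natural killer and B cell values rest on no more than 3 Tmem173 UMIs each. The oligodendrocytes of SHH replicate 1 had 0 of 109450 UMIs (3 UMIs would be 27.4 CPM). Zbp1 had 227 CPM in the dendritic cells of MYC replicate 5 and 46.3 CPM in those of MYC replicate 4, 171 CPM in natural killer cells, 117 CPM in the endothelial cells of MYC replicate 5 (29 cells) and 0 UMIs in the oligodendrocytes of SHH replicate 1. Neutrophils of MYC replicate 2 (308 cells) had each sensor listed, with 3.38 CPM of Tlr3, 9.38 CPM of Tmem173 and 19.1 CPM of Zbp1. The 37 barcodes of MYC replicate 1 that passed the neutrophil gate had 318 CPM of the keratin gene Krt14 and 1.88 CPM of Smarcb1. They also had 3886 CPM of Camp and 4811 CPM of Ngp, both markers of that gate. Tumour-candidate cells of the same library had 9.62 and 13.6 CPM of these, and the neutrophils of MYC replicate 2 had 27028 and 28196 CPM. These values point both ways, so the 37 barcodes are not read as neutrophils.

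Over 29 library and class points with 20 or more cells, which share libraries and differ in depth, the levels of Ifih1 and Eif2ak2 ran closest together among the sensors, with a Spearman rho of 0.81, followed by Ifih1 and Tlr3 (0.73) and Ddx58 and Zbp1 (0.72). Mavs had no rho above 0.17 with any other sensor. Of 8225 genes with a mean of 10 CPM or more, those most like Tmem173 were Cyth4 (0.90), Vav1 (0.89) and AU020206 (0.88), and those most like Zbp1 were Isg20 (0.87), Nmi (0.83) and Ifi47 (0.81). Ifih1 ran with Il18bp (0.86), Oasl1 (0.84) and Ifi202b (0.81), Mb21d1 with Cxcl16 (0.81), Atf3 (0.72) and Klrb1b (0.72), and Tlr3 with Cxcl16 (0.80), Oasl1 (0.77) and Procr (0.76). Ddx58 ran with Mitd1 (0.77), Vcpkmt (0.76) and Ifi203 (0.74), Eif2ak2 with Ifih1, Znfx1 (0.76) and Klf6 (0.73), Adar with Tgoln1 (0.75), Spty2d1 (0.72) and Minos1 (0.70), and Mavs with Edc3 (0.59), Wdr46 (0.58) and Zfp395 (0.57). The points include the 37 barcodes of MYC replicate 1 that passed the neutrophil gate and are not read as neutrophils. These rank correlations are a description without a test.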

How the data were processed

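Gene expression was measured by 3' droplet single-cell RNA sequencing (10x Chromium) in 7 tumour libraries. The deposited tables hold raw UMI counts per gene and barcode, whole numbers that the authors did not normalise, made with Cell Ranger 2.0.2 on mm10 per the submitters' processing notes. A gene absent from a file was set to 0. Animals were the replicates, and 2 libraries with a shared title number were summed. The members, gene lists and gates were chosen with earlier results of these data known. Marker genes that define the classes are not reported as results. Barcodes were gated on raw marker UMIs: 3 or more UMIs over 2 or more own markers, with at most 2 UMIs, or 5% of the own ones, of other classes. Tumour-candidate cells had no Ptprc UMI and at most 1 other marker UMI, or 0.05% of the barcode's UMIs. No doublet caller was run. The gate removes barcodes with markers of more than 1 class, and leaving out the highest-UMI barcodes was an alternative.

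Sums of UMIs were taken for each class of each animal, with 20 cells or more behind every sum, and were tested in R 4.3.3 by edgeR 4.0.16 (TMM, filterByExpr, quasi-likelihood F test, Benjamini-Hochberg threshold 0.05). Comparisons of classes kept the animal as a block, with animals inferred from the numbers in the library titles. Sums held 111115 to 41931708 UMIs. Standard errors of the log2 fold change were back-calculated, as its absolute value divided by the square root of the quasi-likelihood F value. They are not fitted separately and need not match the p beside them. Levels are CPM without TMM factors, mean ± SD over animals. Intervals are exact Poisson at 95%, and floors use 3 counts. They cover counting error only. Alternatives were DESeq2 1.42.0, other normalisation, filters and gates, the number of sequencing runs, and leaving out each library. Scripts were tested on simulated data. All 9 members were named, with up to 4 genes per list by smallest p in tumour-candidate cells and the 3 genes most like each member. A gene that this rule names is not reported here. Whether replicates are separate litters is not stated in the labels, so p-values measure the spread between these samples.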

Additional observations from a re-analysis of the deposited data

Results flagged for a closer look

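The MYC over SHH fold of Zbp1 differed between cell classes of the same tumours: it was 5.28 larger on the log2 scale in tumour-candidate cells than in macrophages, by a test of the difference itself (edgeR quasi-likelihood test, adjusted p = 0.0216). In tumour-candidate cells 4 of 4 MYC animals were above both SHH animals, which held for 11.4% of all genes tested, and in macrophages 3 of 4 were. The SHH level in tumour-candidate cells rests on 3 UMIs. The call was lost without MYC replicate 1 (5.37, edgeR adjusted p = 0.0541) and without TMM factors (4.81, edgeR adjusted p = 0.0507). With a single SHH animal left, the difference was 6.71 without SHH replicate 1 and 3.89 without SHH replicate 2. Among 27 groups of 4 animals, 1 for each sensor and class, no animal stood apart by Dixon's test, which flags about 1 in 20 such groups by chance.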

How the results depend on the processing

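Of 991 alternative values over 54 sensor results, 42 could not move, being tumour-gate settings of fits without tumour-candidate cells, and 54 repeat the fit without MYC replicate 3. Of the other 895, 840 kept the direction and the side of the threshold, 26 lost a call, 17 gained one and 12 changed sign, all of the last between values that did not pass. The stricter tumour gate also drops MYC animal 1 (11 tumour-candidate cells) and the stricter immune gates also drop MYC animals 1 and 2 from the macrophage sums (12 and 15 cells), so under these settings the gate and the animals change together. Tmem173 in macrophages and in T cells over tumour-candidate cells passed under every alternative run. Changes of sign (log2) were in macrophages of MYC against SHH for Mb21d1 (-0.077 with stricter immune gates, -0.0085 with at most 10% mitochondrial UMIs, and -0.24 to 0.46 when 1 library was left out), for Mavs in macrophages against tumour-candidate cells (-0.12 without TMM factors and -0.10 without SHH replicate 2, -0.10 to 0.44 over libraries left out), for Ifih1 and Mavs in T cells against tumour-candidate cells (0.076 and 0.27 with the stricter tumour gate), for Zbp1 in macrophages against T cells (0.078 with stricter immune gates, 0.015 without MYC replicate 3 or replicates 2 and 3, and -0.51 to 0.015 over libraries left out), and for Adar in the same comparison (-0.083 without TMM factors and -0.030 with stricter immune gates). The cause was not tested.

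Counts of all genes that passed moved as follows. For MYC against SHH in tumour-candidate cells 514 became 1428 with DESeq2, 328 of 4183 genes tested with the stricter tumour gate, 288 with sequencing runs as a covariate, and 2 to 861 when a library was left out (861 without MYC replicate 3, 252 without MYC replicate 5, 13 without SHH replicate 1 and 2 without SHH replicate 2). In macrophages 16 became 296 with DESeq2, 63 without the low-count filter, 53 with stricter immune gates and 1 to 51 with a library left out, and in T cells 3 became 28, 160 (no filter), 7 (runs) and 1 to 3. Macrophages against tumour-candidate cells had 2582 genes (1721 to 2722 with a library left out), T cells against tumour-candidate cells 2375 (1692 to 2339) and macrophages against T cells 1512 (847 to 1665). Without the replicate block these were 1481, 1487 and 996, and Zbp1, Eif2ak2, Ifih1 and Adar lost their calls in macrophages over tumour-candidate cells (adjusted p = 0.158, 0.0824, 0.29 and 0.173), Zbp1 its call in T cells (0.145) and Ifih1 its call against T cells (0.268). The difference of folds had 170 genes, and 47 without TMM factors (Zbp1 4.81, adjusted p = 0.0507), 423 with DESeq2, 657 without the filter, 105 with the stricter tumour gate, 422 with stricter immune gates and 0 to 230 with a library left out.

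Library totals alone moved the median of all genes to -0.25 in tumour-candidate cells, 0.24 in macrophages and -0.41 in macrophages against tumour-candidate cells, and the split of higher and lower calls to 208 and 392 from 247 and 267, to 8 and 10 from 5 and 11, and to 1099 and 2347 from 1366 and 1216. In macrophages against T cells it was 701 and 1066 from 878 and 634, and in the difference of folds 37 and 10 from 154 and 16. With DESeq2 Mb21d1, Ifih1 and Zbp1 passed in tumour-candidate cells (adjusted p = 0.0485, 0.002 and 2.33e-05), and Ifih1 also did without barcodes that held a T cell list UMI (0.0454), an alternative added after the data were seen. Depth limits Tmem173, Mb21d1 and Zbp1 in SHH tumour-candidate cells, which hold 2, 4 and 3 UMIs of them, and leaving out an SHH animal leaves the other alone, assumed to vary like MYC.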
